A study of Mus musculus with 32 samples.

Results

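The genes described here are 27 genes of cholesterol biosynthesis and of its control by the transcription factor SREBP2, taken by name from a table of 54532 mouse genes, where each of the 27 names occurred once. They were measured by RNA-Seq in livers of 12-week-old C57BL/6 mice of both sexes, either wild type (WT) or homozygous *Cyp2c70* knockout (KO), fed chow or chow with 0.006% SC-435 (about 11 mg/kg/day). SC-435 is an inhibitor of IBAT, the ileal transporter by which bile acids return from the gut to the liver. CYP2C70 is the mouse enzyme that makes muricholic acids, and the KO allele is a CRISPR deletion spanning exon 2 carried in the germ line of mice descended from 1 founder. The 8 groups (female and male WT chow, KO chow, WT SC-435 and KO SC-435) held 4 mice each, which were not fasted before tissue was taken. Levels are given as CPM, read counts per 1000000 counts of a library after TMM scaling between libraries.

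Cholesterol is built from acetyl-CoA through mevalonate, isoprenoid diphosphates, squalene and lanosterol. When sterols in the endoplasmic reticulum run low, the escort protein SCAP carries SREBP2 to the Golgi, proteases cut its transcription factor domain free, and the genes of the pathway are transcribed, while INSIG1 holds the SCAP and SREBP2 complex back when sterols are plentiful. In hepatocytes cholesterol is the starting material of bile acids, so a liver that loses bile acids into the faeces draws on this pathway.

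The upstream bases of 4 members are shown because the SREBP2 response is read from such sequences. They can hold a sterol element, searched here as TCACNCCAC, together with boxes for the factors NF-Y (CCAAT) and Sp1 (GGGCGG). RefSeq promoters of build GRCm38.p6 were matched by symbol for 23 of the 27 members, and *Fdps*, *Fdft1*, *Sqle* and *Stard4* had no entry in the table. Each stretch below is the plus strand, which is the gene's own strand, and ends before the first annotated transcribed base. Capitals mark TCACNCCAC, CCAAT and GGGCGG read on either strand, so that CCAAT on the other strand appears as ATTGG. The first is the stretch before *Hmgcs1*, chr13:119690101-119690350, the second lies between *Mvk* and its divergent neighbour *Mmab*, chr5:114444061-114444268, the third before *Insig1*, chr5:28071162-28071362, and the last before *Srebf2*, chr15:82147019-82147180.
Hmgcs1: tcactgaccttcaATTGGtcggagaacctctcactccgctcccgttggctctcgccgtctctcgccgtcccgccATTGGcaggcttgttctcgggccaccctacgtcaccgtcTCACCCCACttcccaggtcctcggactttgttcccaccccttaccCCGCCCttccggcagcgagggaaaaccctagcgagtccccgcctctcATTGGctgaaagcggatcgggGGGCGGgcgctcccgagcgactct
Mvk: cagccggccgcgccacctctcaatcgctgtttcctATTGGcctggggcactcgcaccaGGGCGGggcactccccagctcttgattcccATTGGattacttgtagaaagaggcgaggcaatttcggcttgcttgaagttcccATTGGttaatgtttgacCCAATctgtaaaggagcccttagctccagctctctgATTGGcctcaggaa
Insig1: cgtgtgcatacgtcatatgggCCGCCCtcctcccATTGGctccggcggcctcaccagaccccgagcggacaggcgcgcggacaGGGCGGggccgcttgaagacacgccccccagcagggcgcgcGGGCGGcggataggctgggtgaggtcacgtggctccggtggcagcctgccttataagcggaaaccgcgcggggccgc
Srebf2: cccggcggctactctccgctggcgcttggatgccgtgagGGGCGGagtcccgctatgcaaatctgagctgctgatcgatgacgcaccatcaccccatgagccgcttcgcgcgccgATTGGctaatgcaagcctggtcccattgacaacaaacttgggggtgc

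*Hmgcs1* was the only matched member with TCACNCCAC in the 250 bases before its start (1 of 23), and that match began 137 bases before the start, while 1.22% of the 27025 gene symbols in the table held these letters. With the shorter CACNCCAC, which lies within the longer motif, 3 of 23 members (*Acat2*, *Hmgcs1* and *Insig1*) and 6.05% of all symbols had a match. CCAAT was found before 19 of 23 members against 37.5% of all symbols, and GGGCGG likewise before 19 of 23 against 35.4%. The symbols were not limited to genes expressed in liver, whereas all members were expressed there, so these shares are not of like sets. The 4 members without CCAAT at any listed start were *Acat2*, *Scap*, *Mbtps1* and *Mbtps2*. Between the starts of *Mvk* and *Mmab*, which are 241 bases apart, CCAAT occurred 5 times, of which 4 were on the strand of *Mmab* at a regular spacing of 53 bases. These are matches of letters in fixed windows and do not show where a factor binds.

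All 27 members passed the filter on low counts in every comparison. The libraries held 36476021 to 44771350 counts each, and the KO label was borne out by *Cyp2c70* itself, which lay between 109 and 188 CPM in the 16 KO mice and between 271 and 838 CPM in the 16 WT mice, counted over the whole gene with its undeleted exons. A pair of libraries stood apart. Male WT chow replicate 1 had a TMM factor of 0.622, against 0.911 to 1.26 in the other 31 libraries, and a mean correlation of 0.918 with its group, against at least 0.962 for the others. Female KO chow replicate 4 was the highest of its group for 25 of the 27 members. It was set apart by the levels of the members themselves. Its TMM factor was 1.07, but its mean correlation with its group, 0.976, was the lowest of the female libraries, the next being 0.981. Without it, 344 of 16565 genes were called lower in KO than in WT females on chow, against 163 of 16205 with it. Leaving it out necessarily lowers the KO chow level, which enlarges both the KO effect on chow and the SC-435 response in KO females. Fits without it show how far a count rests on this mouse and add no separate support. The main counts are given with and without this pair of libraries. All hepatocyte markers examined, *Alb* and *Ttr* among them, were present in every group. In bulk tissue, fewer cells of a type and less RNA per cell cannot be told apart.

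Per kilobase of gene length, *Hmgcs1* (cytosolic HMG-CoA synthase), *Insig1*, *Sc5d* (a sterol desaturase) and *Ebp* (a sterol isomerase) had the highest levels averaged over the 8 groups, at 191, 174, 157 and 114 CPM per kilobase. At the other end were *Mbtps1* at 7.52, *Fdps* at 4.64, *Ggps1* at 1.99 and *Mbtps2* at 1.02 CPM per kilobase. *Fdps* shares 7512 bases with another annotated gene on its strand, which held 1 count over all libraries against 25575 for *Fdps*. *Tm7sf2*, *Srebf2* and *Mbtps2* also overlap genes on their own strand. *Hmgcs1*, *Mvd*, *Idi1*, *Ggps1*, *Fdft1*, *Lss*, *Cyp51* and *Scap* overlap genes on the other strand. The counts of these members are less certain for that reason.

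To follow the 27 genes together, the log2 level of each was taken relative to the mean of the chow-fed WT mice of the same sex and averaged within each mouse. In females this average was -0.05, 0.08, 0.51 and -0.53 in the 4 chow-fed WT mice and -1.30, -0.95, -1.003 and 0.04 in the 4 chow-fed KO mice. With SC-435 it was 0.77, 0.85, 0.82 and 1.01 in WT and 1.44, 1.30, 1.27 and 1.28 in KO females. Every SC-435-fed female lay above every chow-fed female, and the KO mice moved from the lowest position on chow, apart from replicate 4, to the highest on SC-435. In males the averages were 0.40, 0.04, -0.35 and -0.09 in chow-fed WT, -0.37, -0.52, -0.58 and -0.59 in chow-fed KO, 0.79, 0.88, 0.70 and 0.72 in SC-435-fed WT and 0.69, 0.75, 1.09 and 0.98 in SC-435-fed KO mice. The SC-435-fed males of both genotypes again lay above all chow-fed males, with the genotypes overlapping on the drug.

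**Figure D1:**
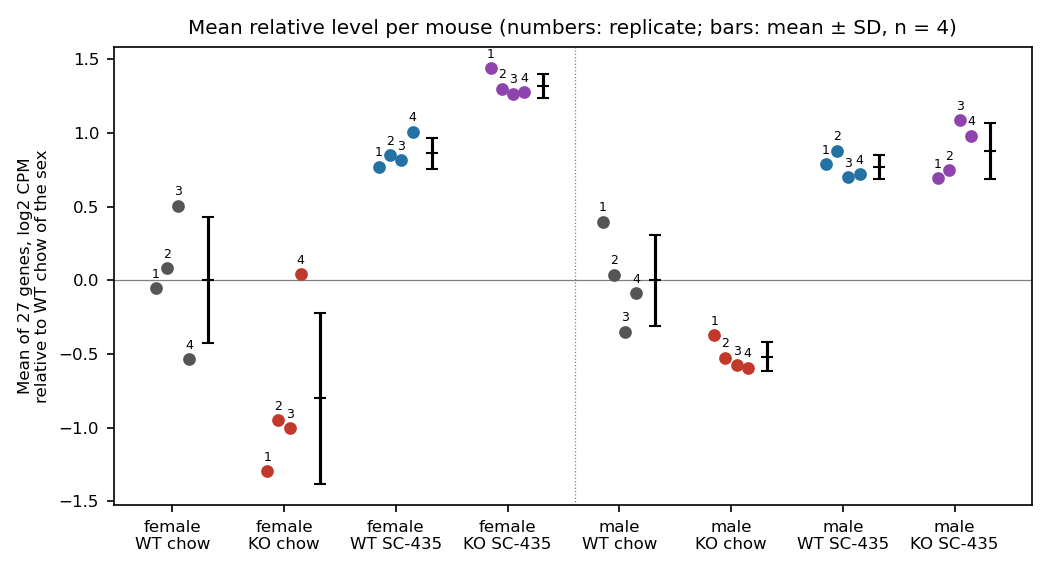
Mean log2 level of the 27 genes in each of the 32 mice relative to chow-fed WT mice of the same sex (points, numbered by replicate; bars, mean ± SD, n = 4). SC-435-fed mice lie between 0.69 and 1.44, above all chow-fed mice, and female KO chow replicate 4 lies at 0.04 while the other 3 of its group lie at or below -0.95.

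In females the chow-fed mice also differed more among themselves in these genes than the mice fed SC-435. The median over the 27 members of the SD between mice was 0.52 on the log2 scale in female WT chow and 0.72 in female KO chow, against 0.15 in both groups for 7993 other protein-coding genes of at least 10 CPM. Without replicate 4 it was 0.21 in female KO chow, against 0.13 for the other genes. In the SC-435-fed females it was 0.15 in WT and 0.11 in KO mice, against 0.10 for the other genes in both groups. Among chow-fed WT females replicate 3 was the highest for 23 members and replicate 4 the lowest for 22. In males this order of the diets was seen in WT and not in KO mice. Their median SD was 0.64 in WT chow, where the other genes also reached 0.49, and 0.25 without replicate 1. It was 0.15 in KO chow, 0.16 in WT SC-435 and 0.23 in KO SC-435. The order of mice within a group is a description, and its source was not tested.

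**Figure D2:**
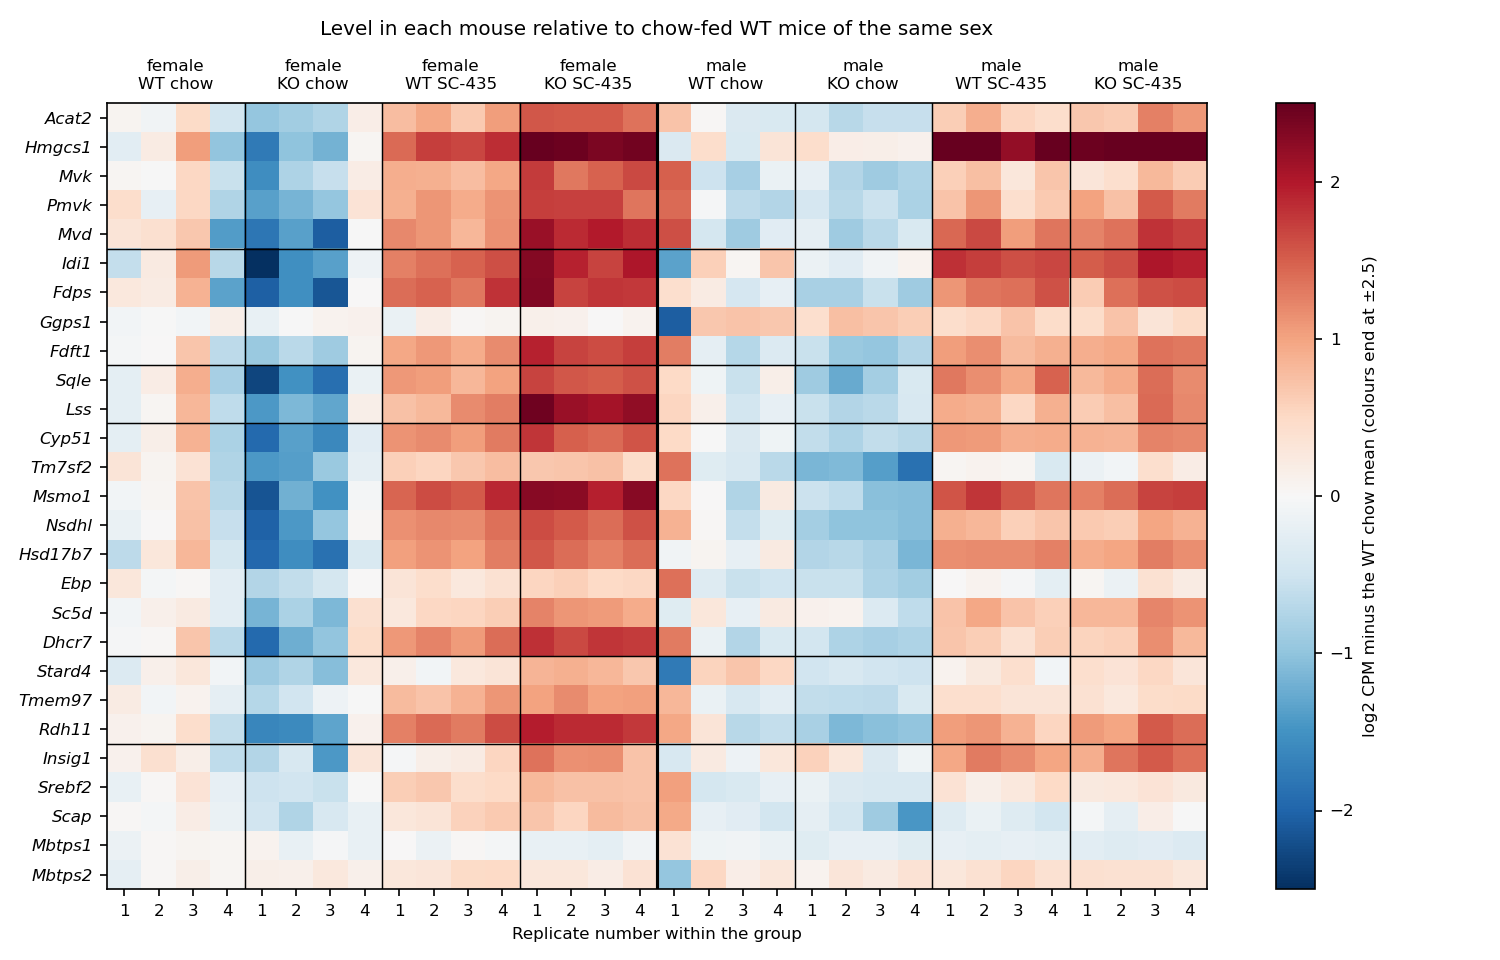
Log2 level of each of the 27 genes (rows, in pathway order, with lines between the mevalonate steps, the steps to squalene, to lanosterol and to cholesterol, sterol handling and SREBP2 control) in each of the 32 mice (columns), relative to the mean of chow-fed WT mice of the same sex. Red is higher and blue lower, and colours end at ±2.5. Male WT chow replicate 1 stands out in both directions, with *Ggps1* and *Stard4* low and *Mvk*, *Tm7sf2* and *Ebp* high.

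The comparison of SC-435 with chow in KO mice asked what IBAT inhibition did to the pathway in *Cyp2c70*-deficient liver. In KO females 23 of the 27 genes were called higher (Benjamini-Hochberg adjusted p under 0.05 by the quasi-likelihood test of edgeR, and more than 2-fold) and 0 lower, while 2.11% of the 16332 genes tested were called higher. In KO males 19 of 27 were called higher and 0 lower, against 1.88% of 15984 genes. The median log2 fold change of the members was 2.25 in females and 1.51 in males, where that of all genes tested was -0.02 and -0.03. Without female KO chow replicate 4 the count in females was 24, against 3.51% of all genes.

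All 5 enzymes of the mevalonate steps rose in KO mice of both sexes. *Hmgcs1* was at 133, 224, 199.7 and 468 CPM in chow-fed and 2925, 2462, 2302 and 2411 CPM in SC-435-fed KO females. That is 9.86-fold, and the groups did not overlap (log2 fold change 3.30 ± 0.34, adjusted p = 0.0011, and 3.78 ± 0.19 without chow replicate 4). KO males went from 214, 177, 172 and 169.6 CPM to 854, 926, 1060.3 and 1257 CPM, or 5.61-fold (log2 fold change 2.49 ± 0.15, adjusted p = 9.5e-05). *Mvd*, the decarboxylase that ends the mevalonate steps, was at 12.8, 17.5, 10.7 and 44.3 CPM in chow-fed and 201, 164, 178 and 161 CPM in SC-435-fed KO females (log2 fold change 3.05 ± 0.40, adjusted p = 0.0024, and 3.70 ± 0.17 without chow replicate 4). In KO males it went from 20.9, 13.2, 15.3 and 18.8 CPM to 58.1, 63.2, 86.2 and 79.8 CPM (log2 fold change 2.08 ± 0.18, adjusted p = 0.00028). The thiolase gene *Acat2* and the kinase genes *Mvk* and *Pmvk* rose by 2.03 ± 0.23, 2.11 ± 0.29 and 2.25 ± 0.34 on the log2 scale in females, and by 1.51 ± 0.15, 1.19 ± 0.17 and 1.79 ± 0.17 in males.

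Of the 4 genes that turn isoprenoid units into longer chains, 3 rose in both sexes and *Ggps1* did not pass the test in either. *Idi1*, the isomerase, was at 21.6, 42.5, 47.6 and 112 CPM in chow-fed and 604, 465, 393 and 499 CPM in SC-435-fed KO females, with no overlap (log2 fold change 3.13 ± 0.43, adjusted p = 0.0026, and 3.73 ± 0.27 without chow replicate 4). The corresponding change in males was 1.90 ± 0.14, adjusted p = 0.00015. *Fdps*, farnesyl diphosphate synthase, had a low counted level, which its overlap with another gene makes uncertain. It rose by 3.08 ± 0.44 in females (3.82 ± 0.20 without chow replicate 4) and 2.13 ± 0.21 in males on the log2 scale, and *Fdft1*, squalene synthase, by 2.29 ± 0.21 and 1.94 ± 0.14. *Ggps1*, whose product leaves the sterol route for protein prenylation, was at 8.30, 9.45, 10.1 and 10.3 CPM in chow-fed and 10.4, 10.2, 9.54 and 10.2 CPM in SC-435-fed KO females. Its values overlapped in both sexes (log2 fold change 0.08 ± 0.10, adjusted p = 0.6 in females and -0.12 ± 0.12, adjusted p = 0.48 in males).

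The pair of enzymes that close squalene into lanosterol also rose. *Sqle*, squalene epoxidase, was at 23.7, 40.9, 31.9 and 105 CPM in chow-fed and 379, 342, 334 and 355 CPM in SC-435-fed KO females (log2 fold change 2.81 ± 0.40, adjusted p = 0.0031, and 3.47 ± 0.17 without chow replicate 4). *Lss*, lanosterol synthase, went from 30.6, 37.9, 33.5 and 91.3 CPM to 447, 367, 351 and 385 CPM in the same mice (log2 fold change 3.01 ± 0.33, adjusted p = 0.0013). For both genes the lowest SC-435-fed female lay above the highest chow-fed female. In KO males the log2 fold changes were 1.91 ± 0.20 for *Sqle* and 1.63 ± 0.18 for *Lss*, and both were called.

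Beyond lanosterol, 7 of the 8 enzymes were called higher in females and 7 of 8 in males, and *Ebp* was the exception in both, passing the adjusted p without reaching 2-fold (log2 fold change 0.95 ± 0.15, adjusted p = 0.0043 in females and 0.82 ± 0.13, adjusted p = 0.0054 in males). *Msmo1*, a sterol methyl oxidase, was at 42.6, 82.7, 66.9 and 185 CPM in chow-fed and 925, 913, 736 and 919.9 CPM in SC-435-fed KO females (log2 fold change 3.21 ± 0.39, adjusted p = 0.0017, and 3.78 ± 0.22 without chow replicate 4). Male KO mice went from 121, 113, 85.2 and 84.1 CPM to 422, 460.1, 568 and 581 CPM (log2 fold change 2.34 ± 0.17, adjusted p = 0.00015). *Cyp51*, the lanosterol demethylase, rose by 2.73 ± 0.32 in females and 1.74 ± 0.12 in males, *Hsd17b7* by 2.70 ± 0.32 and 1.94 ± 0.12, and *Nsdhl* by 2.44 ± 0.36 and 1.78 ± 0.10. The rises of the sterol reductase genes *Dhcr7* and *Tm7sf2* were 2.40 ± 0.43 (3.10 ± 0.20 without chow replicate 4) and 1.55 ± 0.24 in females, and *Sc5d* rose by 1.60 ± 0.32. In males these 3 rose by 1.51 ± 0.15, 1.47 ± 0.18 and 1.17 ± 0.18. Chow-fed female replicate 4 was the highest of its group in all of these, as for *Sc5d*, which was at 300.1, 389.9, 312 and 894 CPM.

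**Figure D3:**
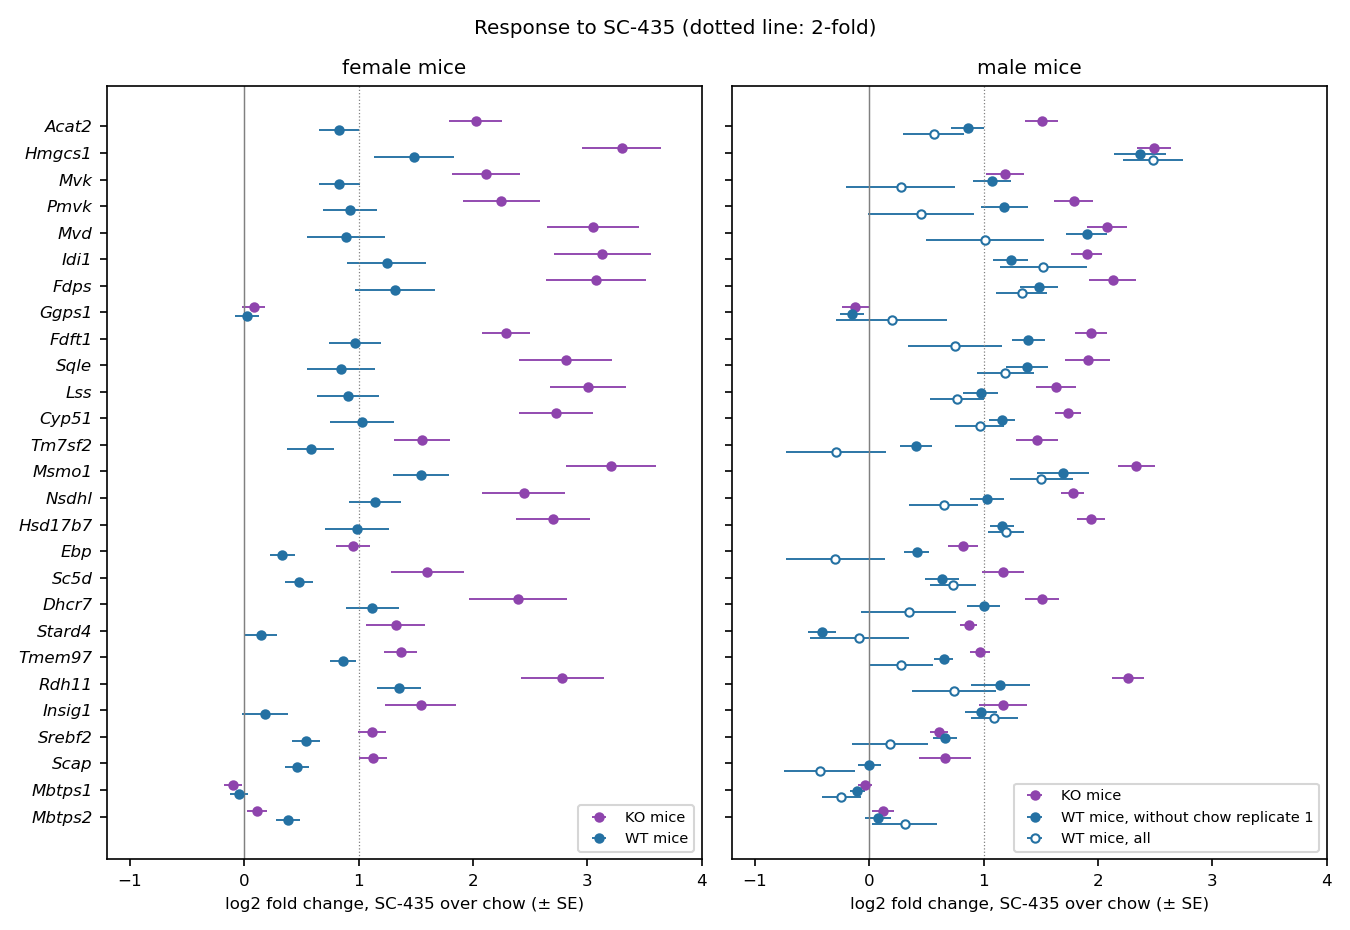
Log2 fold change of SC-435 over chow (± SE) for each of the 27 genes in female and male mice, KO in purple and WT in blue; open points in the male panel include WT chow replicate 1 and filled blue points leave it out. In KO females, with all 8 mice, *Hmgcs1* lies highest at 3.30, while *Ggps1*, *Mbtps1* and *Mbtps2* lie between -0.12 and 0.12 in KO mice of both sexes.

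The 5 control genes of SREBP2 had log2 fold changes below those of most enzymes. *Insig1*, both a target and a brake of SREBP2, was at 308, 389, 189.7 and 632 CPM in chow-fed and 1312, 1129, 1141 and 840.2 CPM in SC-435-fed KO females (log2 fold change 1.54 ± 0.31, adjusted p = 0.01). In KO males the levels were 375, 305, 197 and 233 CPM and 472, 634, 730.1 and 651 CPM (log2 fold change 1.17 ± 0.21, adjusted p = 0.0093), again without overlap. *Srebf2*, which encodes SREBP2, was at 83.9, 87.2, 81.8 and 119.9 CPM in chow-fed and 211, 199, 199.6 and 198 CPM in SC-435-fed KO females (log2 fold change 1.12 ± 0.12, adjusted p = 0.0013). In males it passed the adjusted p below 2-fold (0.61 ± 0.08, adjusted p = 0.0021). *Scap* rose in females (1.13 ± 0.12, adjusted p = 0.0013) and did not pass in males (0.66 ± 0.23, adjusted p = 0.074). Neither protease gene passed. *Mbtps1* was at 84.5, 70.2, 78.4 and 70.4 CPM in chow-fed and 70.1, 70.2, 67.5 and 75.4 CPM in SC-435-fed KO females, and its log2 fold change of -0.10 ± 0.08 did not pass the test (adjusted p = 0.43). *Mbtps2* likewise did not pass in either sex (0.11 ± 0.09, adjusted p = 0.4 in females and 0.12 ± 0.09, adjusted p = 0.39 in males).

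*Rdh11*, which encodes a retinal reductase and was grouped here under sterol handling, showed the largest rise of the 3 genes in that group. It went from 25.6, 26.3, 31.5 and 84.5 CPM to 307, 289, 288 and 269.6 CPM in KO females (log2 fold change 2.78 ± 0.36, adjusted p = 0.0023, and 3.39 ± 0.10 without chow replicate 4) and rose by 2.26 ± 0.14 in males. *Stard4*, a carrier of cholesterol between membranes, was at 77.4, 86.1, 69.2 and 175 CPM in chow-fed and 261, 269.6, 259 and 231 CPM in SC-435-fed KO females (log2 fold change 1.33 ± 0.26, adjusted p = 0.0094). *Tmem97*, a sterol-binding membrane protein, rose by 1.37 ± 0.14 in females. In KO males both passed the adjusted p just below 2-fold, *Stard4* at 0.87 ± 0.08, adjusted p = 0.00033 and *Tmem97* at 0.97 ± 0.09, adjusted p = 0.00039.

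**Figure D4:**
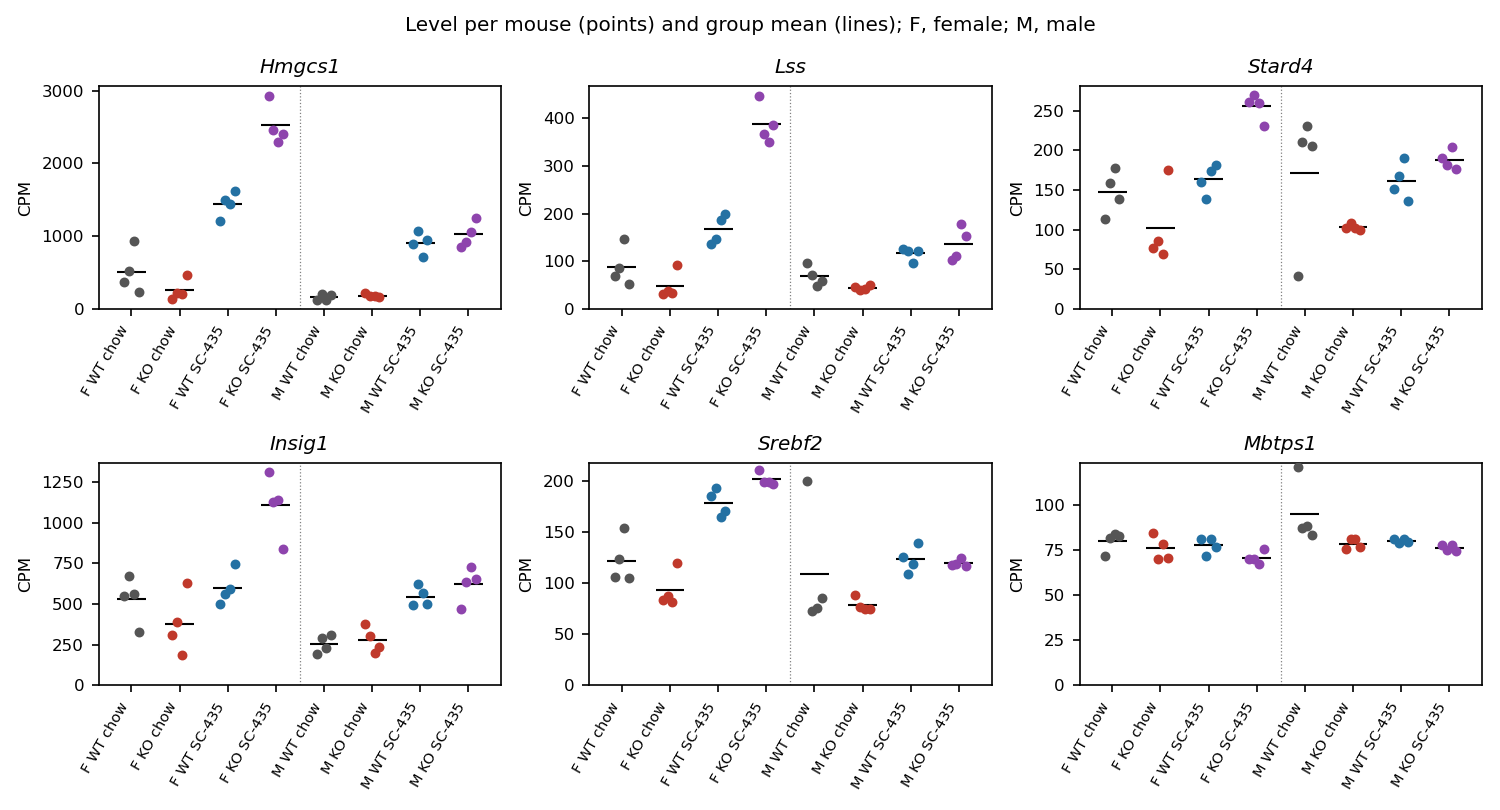
CPM of 6 members in each mouse (points) and the mean of the 4 mice of each group (lines), females left of the dotted line and males right. *Hmgcs1* reaches 2302 to 2925 CPM in SC-435-fed KO females, *Mbtps1* has group means from 70.8 to 95.0 CPM, and male WT chow replicate 1 lies far from its group for *Stard4* (42.1 CPM), *Srebf2* and *Mbtps1*.

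Sums of cell type markers were set beside the same comparison, and some of them overlapped between the diets. The summed level of 5 cholangiocyte markers was 131 to 288 CPM in chow-fed and 97.5 to 141 CPM in SC-435-fed KO females, which overlapped. In KO males it was 143 to 1177 against 48.9 to 59.6 CPM without overlap, all 5 being detected in every group. That of 8 hepatocyte markers was 60942 to 82679 CPM in chow-fed and 88097 to 100788 CPM in SC-435-fed KO females. Such a sum is weighted toward the most abundant markers. Taken singly, 0 of the 8 passed the adjusted p as higher in KO females and 1 passed as lower, with a median log2 fold change of 0.27. In KO males the hepatocyte sums overlapped, at 56051 to 86311 and 69453 to 91694 CPM. Summed macrophage markers were 295 to 412 against 176 to 275 CPM in KO females and, with overlap, 163 to 566 against 151 to 247 CPM in KO males. Stellate cell markers summed to 205 to 404 against 192 to 243 CPM in KO females, with overlap, and to 196 to 489 against 106 to 147 CPM in KO males. Endothelial cell markers overlapped in KO females (153 to 205 against 158 to 208 CPM) and were higher with SC-435 in all KO males (109 to 134 against 156 to 174 CPM). The sums of T and B cell markers overlapped in both sexes and stayed below 5 CPM. The part of these shifts in the result was not tested.

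The response was then measured in WT mice, where *Cyp2c70* is intact. In WT females 5 of the 27 genes were called higher and 0 lower, where 0.686% of 15739 genes were called higher. Another 6 passed the adjusted p without 2-fold, making 11 against 2.40% of all genes, and the members' median log2 fold change was 0.86. The count rose to 14 without WT chow replicate 3 and fell to 2 without WT chow replicate 1, without WT chow replicate 2 or without any 1 of the SC-435-fed mice. For those fits the share of all genes is not given, so the counts show only dependence on single mice. *Hmgcs1* was at 376, 522, 929.7 and 229 CPM in chow-fed and 1212, 1495, 1439 and 1619 CPM in SC-435-fed WT females, which did not overlap (log2 fold change 1.48 ± 0.35, adjusted p = 0.044). *Msmo1* went from 182, 198, 312 and 119 CPM to 524, 596, 551 and 702 CPM (log2 fold change 1.55 ± 0.25, adjusted p = 0.012), the largest change in these mice. *Rdh11*, *Nsdhl* and *Dhcr7* were the other called genes, at 1.36 ± 0.19, 1.15 ± 0.23 and 1.12 ± 0.23. *Tmem97*, *Acat2*, *Mvk*, *Fdft1*, *Srebf2* and *Scap* passed below 2-fold, with log2 fold changes from 0.46 ± 0.11 for *Scap* to 0.97 ± 0.23 for *Fdft1*. *Insig1* overlapped between the diets, at 551, 673, 564 and 329 CPM and 499, 563, 593 and 748 CPM (0.18 ± 0.20, adjusted p = 0.67), as did *Stard4* (0.15 ± 0.14, adjusted p = 0.6).

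The same comparison in WT males rested on male WT chow replicate 1. With all 8 mice only *Hmgcs1* was called higher, from 121, 211, 121 and 195 CPM to 888, 1075, 717 and 943 CPM (log2 fold change 2.48 ± 0.26, adjusted p = 0.02), against 0.0131% of 15211 genes. Without that library 12 of the 27 were called higher and 0 lower, against 0.674% of 15577 genes, with a median log2 fold change of 0.999. Leaving out any 1 of the others gave 1 (WT chow replicate 2) or 0. Without replicate 1 *Hmgcs1* had 2.37 ± 0.23, adjusted p = 0.0026 and *Mvd* 1.90 ± 0.18, adjusted p = 0.0026. The levels of *Mvd* show the dependence: 75.1, 18.2, 13.2 and 20.01 CPM in chow-fed and 66.0, 77.3, 50.6 and 61.8 CPM in SC-435-fed WT males, so that replicate 1 alone reached the SC-435 range. *Msmo1*, *Fdps*, *Fdft1*, *Sqle*, *Idi1*, *Pmvk*, *Hsd17b7*, *Cyp51*, *Mvk* and *Nsdhl* were the others called without it, between 1.03 ± 0.15 for *Nsdhl* and 1.69 ± 0.22 for *Msmo1*. *Stard4* pointed the other way without passing (-0.41 ± 0.12, adjusted p = 0.11), with 42.1, 210.2, 230.0 and 205 CPM in chow-fed and 151, 168, 190.0 and 136 CPM in SC-435-fed WT males. The hepatocyte marker sum of replicate 1 was 198195 CPM, where the other 3 of the group had 80157 to 90917 CPM.

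Whether the response differed between genotypes was tested as the interaction of genotype and diet. In females 25 of the 27 members had a larger log2 fold change in KO than in WT mice, a count with no share of all genes beside it. The median interaction of the members was 1.30 on the log2 scale, against -0.01 for all genes tested. The members were measured in the same mice, so the count is a description. The interaction passed for 5 of the 27, all toward a larger response in KO mice, against 0.859% of 16882 genes in that direction. These were *Lss* at 2.10 ± 0.45, adjusted p = 0.027, *Mvd* at 2.16 ± 0.56 (adjusted p = 0.04997, and 2.79 ± 0.44 without female KO chow replicate 4), *Fdft1* at 1.32 ± 0.33, adjusted p = 0.044, *Acat2* at 1.20 ± 0.31, adjusted p = 0.049 and *Scap* at 0.66 ± 0.17, adjusted p = 0.045, all on the log2 scale. The number rested on single mice. Without female KO chow replicate 4, the mouse picked by its high levels of these genes, it was 24, against 4.60% of 17182 genes. Without female WT chow replicate 4 it was 9, and without any 1 of the other 14 mice it was between 0 and 3, fits for which no share of all genes is given. The 3 genes outside the 24 were *Ggps1*, *Mbtps1* and *Mbtps2*. In males the interaction passed for 0 of 27 with edgeR's quasi-likelihood test, against 0.0121% of 16555 genes. It passed for 16 at an unadjusted p under 0.05 with edgeR and for 3 with DESeq2, without a share of all genes to set beside these counts. Without male WT chow replicate 1 it passed for *Hsd17b7* (0.75 ± 0.16, adjusted p = 0.048) and *Stard4* (1.26 ± 0.14, adjusted p = 0.0015), against 0.301% of 16932 genes.

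Across the 27 genes the size of the response in KO females and that in WT females, which come from different mice, had a Pearson correlation of 0.885, and the KO responses of females and males one of 0.961. Without female KO chow replicate 4 they were 0.869 and 0.957. In males the correlation between KO and WT mice was 0.739 with all mice and 0.880 without WT chow replicate 1. These are descriptions over genes, which share libraries within each comparison and are not independent replicates.

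In chow-fed mice the question was what *Cyp2c70* deficiency did to the pathway. The chow-fed KO mice are also the baseline of the SC-435 comparison above, so that the values here and there share samples. In females 26 of the 27 members had a log2 fold change below 0, with a median of -0.71 against -0.02 for all genes tested. Only *Hsd17b7*, which takes part in sterol demethylation, was called lower, and 1.01% of 16205 genes were called lower. It was at 63.5, 122, 178 and 73.8 CPM in WT and 25.7, 34.0, 27.5 and 76.6 CPM in KO females, where replicate 4 alone lay within the WT range (log2 fold change -1.42 ± 0.41, adjusted p = 0.042). *Scap* passed the adjusted p below 2-fold (-0.45 ± 0.13, adjusted p = 0.046).

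The count of 1 became 0 without WT chow replicate 2 or 3 or without KO chow replicate 1, 2 or 3, and 4 without WT chow replicate 4. Leaving out female KO chow replicate 4 moved it to 15 genes called lower, against 2.08% of 16565 genes, with a median log2 fold change of -1.23. That mouse was picked by its high levels of these genes, so its removal was bound to lower the KO values and adds no separate support. *Sqle* was at 98.6, 133, 220.1 and 65.6 CPM in WT and 23.7, 40.9, 31.9 and 105 CPM in KO females. The first 3 KO mice lay below every WT mouse and the last lay inside the WT range, giving -1.37 ± 0.48, adjusted p = 0.082 with all mice and -1.99 ± 0.37, adjusted p = 0.0048 without replicate 4. *Rdh11* had the smallest adjusted p without that mouse, at 84.6, 82.4, 108 and 51.7 CPM in WT and 25.6, 26.3, 31.5 and 84.5 CPM in KO females (-1.54 ± 0.21, adjusted p = 0.0011 without replicate 4). *Fdps*, *Idi1*, *Mvd*, *Cyp51*, *Msmo1*, *Nsdhl*, *Hmgcs1*, *Dhcr7*, *Lss*, *Tm7sf2*, *Pmvk* and *Sc5d* were the others called, between -1.02 ± 0.15 for *Sc5d* and -2.07 ± 0.42 for *Fdps*. *Mbtps1*, *Ggps1* and *Mbtps2* had -0.03 ± 0.10, -0.02 ± 0.12 and 0.19 ± 0.12 and did not pass. The summed cholangiocyte markers were 131 CPM in replicate 4, the lowest of the 4 KO mice, whose range was 131 to 288 CPM against 36.0 to 69.0 CPM in WT females. Its hepatocyte markers, at 82679 CPM, were the highest of the KO group, below the WT range of 97833 to 124491 CPM. The part of these shifts in the levels of the members was not tested.

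**Figure D5:**
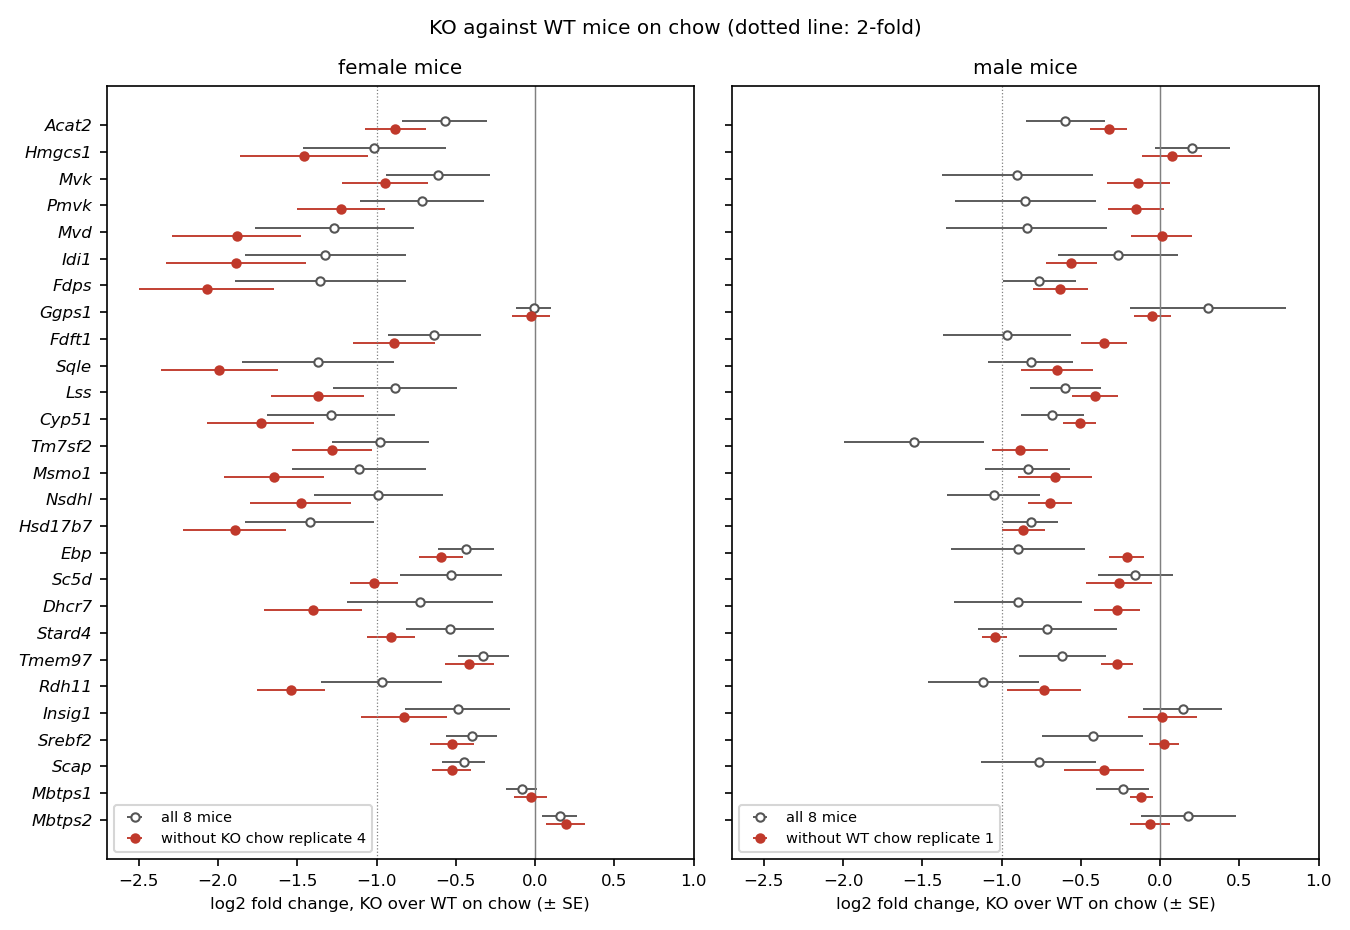
Log2 fold change of KO over WT mice on chow (± SE) for each of the 27 genes, with all 8 mice of a sex (open points) and without the library that stands apart (filled points; female KO chow replicate 4 or male WT chow replicate 1). Leaving the library out moves most female values further below 0 (median -0.71 to -1.23) and most male values closer to 0 (median -0.76 to -0.33).

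In chow-fed males 0 of the 27 were called with edgeR's quasi-likelihood test, where 0.132% of 15862 genes were called lower. At an unadjusted p under 0.05 there were 11 with edgeR, and DESeq2 called 3, both without a share of all genes at the same limit. The median log2 fold change was -0.76 with all mice and -0.33 without male WT chow replicate 1. In that fit *Stard4* was the 1 called lower, against 0.702% of 16390 genes. At any fold 5 members passed the adjusted p in it, a count for which the share of all genes is not given. *Stard4* was at 42.1, 210.2, 230.0 and 205 CPM in WT and 102, 109, 102 and 99.5 CPM in KO males, so that the KO mice lay far below 3 of the 4 WT mice and above the other (-1.04 ± 0.08, adjusted p = 0.0013 without replicate 1, -0.71 ± 0.44, adjusted p = 0.46 with it). *Tm7sf2*, *Hsd17b7*, *Nsdhl* and *Cyp51* passed below 2-fold, at -0.88 ± 0.18, -0.86 ± 0.14, -0.70 ± 0.14 and -0.51 ± 0.10. *Hmgcs1*, *Insig1*, *Srebf2* and *Mvd* were close to 0 without replicate 1, between 0.01 ± 0.19 for *Mvd* and 0.07 ± 0.19 for *Hmgcs1*. Cholangiocyte markers in these mice summed to 143 to 1177 CPM in KO and 24.0 to 34.7 CPM in WT males.

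Treated KO mice were also compared with chow-fed WT mice, the untreated reference, which are the same WT mice as above. In females 19 of 27 members were called higher and 0 lower, against 2.71% of 15881 genes, with a median log2 fold change of 1.45. *Hmgcs1* stood at 2525 ± 275 CPM (SD, n = 4) in treated KO and 514 ± 302 CPM (SD, n = 4) in chow-fed WT females (2.30 ± 0.34, adjusted p = 0.0018), and *Lss* at 387 ± 41.9 CPM against 88.8 ± 40.4 CPM (2.13 ± 0.26, adjusted p = 0.00063). *Tm7sf2* was the only enzyme beyond lanosterol that did not pass (0.58 ± 0.20, adjusted p = 0.075). In males *Hmgcs1* (2.67 ± 0.26, adjusted p = 0.0045) and *Hsd17b7* (1.10 ± 0.16, adjusted p = 0.038) were called higher, against 0.169% of 15395 genes. Without male WT chow replicate 1 the count was 17, against 1.83% of 15797 genes, and *Hmgcs1* (2.55 ± 0.21), *Mvd* (2.07 ± 0.18) and *Msmo1* (1.66 ± 0.21) had the largest changes. Without any 1 of the other mice of that comparison it was 1.

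On SC-435 itself the genotypes differed in females by amounts mostly under 2-fold. Only *Lss* was called higher in KO females by the 2-fold rule, against 1.99% of 15869 genes (2 members without WT SC-435 replicate 4), but 18 of 27 passed the adjusted p in that direction and 0 in the other, against 6.23% of all genes. *Lss* was at 137, 146, 187 and 199 CPM in WT and 447, 367, 351 and 385 CPM in KO females (1.22 ± 0.13, adjusted p = 0.00072), which did not overlap. All 5 mevalonate genes passed, among them *Mvd* (0.90 ± 0.10, adjusted p = 0.00085) and *Hmgcs1* (0.81 ± 0.10, adjusted p = 0.0018). *Insig1* was at 499, 563, 593 and 748 CPM in WT and 1312, 1129, 1141 and 840.2 CPM in KO females (0.88 ± 0.15, adjusted p = 0.0061). *Tm7sf2* was level between the genotypes (0.00 ± 0.08), and *Srebf2* did not pass (0.18 ± 0.07, adjusted p = 0.11). Beside these differences, cholangiocyte markers summed to 31.0 to 37.7 CPM in WT and 97.5 to 141 CPM in KO females and stellate cell markers to 132 to 183 and 192 to 243 CPM. Hepatocyte marker sums overlapped (85037 to 99821 and 88097 to 100788 CPM), as did macrophage marker sums (212 to 269.6 and 176 to 275 CPM). The part of these markers in the result was not tested. In males 0 of 27 passed with edgeR's quasi-likelihood test or with DESeq2, and edgeR called 0.00648% of 15434 genes higher. At an unadjusted p under 0.05 there were 3 members with edgeR and 4 with DESeq2, counts for which no share of all genes is given. Log2 fold changes lay between -0.14 ± 0.15 for *Sqle* and 0.43 ± 0.18 for *Pmvk*.

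The sexes were set against each other as the difference between their log2 fold changes, female minus male. For SC-435 in KO mice the response was larger in females for 25 of 27 members, a count with no share of all genes beside it. The median difference was 0.50 on the log2 scale, against -0.002 for all genes tested. The members share mice, so the count is a description. The difference passed for 0 of them with edgeR's quasi-likelihood test, against 0.0996% of 17069 genes. With edgeR 6 passed at an unadjusted p under 0.05, and with DESeq2 1 passed. The share of all genes is not given at an unadjusted p or with DESeq2. Without female KO chow replicate 4, the mouse picked by its high levels of these genes, the difference passed for 17, against 0.707% of 17396 genes. These were led by *Lss* at 1.88 ± 0.23, adjusted p = 0.0015. Neither the KO effect on chow nor the SC-435 effect in WT mice gave a member with a sex difference by either edgeR or DESeq2 (1 and 3 with edgeR at an unadjusted p under 0.05), also when any 1 library was left out with edgeR.

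Genes next to the pathway were counted from lists. Of 10 genes of bile acid synthesis, 3 were called higher with SC-435 in KO females and 2 in KO males, where 2.11% and 1.88% of all genes tested were. At any fold 7 and 4 passed in that direction, against 8.56% and 8.80% of all genes. *Cyp7a1*, the rate-limiting enzyme that turns cholesterol into bile acids, was at 8.74, 24.9, 97.6 and 107 CPM in chow-fed and 396, 751, 518 and 925 CPM in SC-435-fed KO females (3.45 ± 0.69, adjusted p = 0.0099, and 3.91 ± 0.71 without chow replicate 4), and changed by 3.83 ± 0.37, adjusted p = 0.00056 in males. The other genes called, picked out after their values were seen, were *Cyp8b1*, the sterol hydroxylase of cholic acid synthesis, in both sexes (5.0 ± 0.85, adjusted p = 0.0058 in females and 2.97 ± 0.56, adjusted p = 0.011 in males), and *Cyp7b1* in females (1.04 ± 0.22, adjusted p = 0.012). *Akr1d1* and *Cyp27a1* passed in both sexes below 2-fold. Of 12 genes of fatty acid synthesis, which are chiefly driven by the related factor SREBP1c, 5 were called higher in KO females and 7 in KO males and 0 lower, against the same shares of all genes. The count in females rested on chow replicate 4, and without it 11 of the 12 were called higher, against 3.51% of all genes. *Acss2*, which makes acetyl-CoA from acetate, changed by 2.58 ± 0.60, adjusted p = 0.017 (3.70 ± 0.25 without chow replicate 4) in females and 2.25 ± 0.19, adjusted p = 0.00028 in males, and *Me1*, which supplies NADPH, by 1.48 ± 0.34, adjusted p = 0.017 and 2.07 ± 0.14, adjusted p = 0.00013. *Acacb* was called in males (1.55 ± 0.15, adjusted p = 0.00057) but not in females (1.73 ± 0.65, adjusted p = 0.093), where it had 3.01 ± 0.32 without chow replicate 4.

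Fewer genes were called on the other lists. None of the 10 genes that lead isoprenoids to dolichol, ubiquinone or prenylated proteins was called with edgeR's quasi-likelihood test in either sex, and 0 in females and 2 in males (*Pdss2* and *Coq2*) passed at any fold, beside the shares of all genes given above. Of 11 genes of sterol sensing and storage, *Insig2* was called lower in KO females (-1.05 ± 0.16, adjusted p = 0.0036) and none in males, where 3.70% of all genes were called lower in females and 4.57% in males, while *Soat1*, which stores cholesterol as esters, had -0.86 ± 0.18, adjusted p = 0.012 in females. Of 8 genes of LXR and sterol export, *Abcg1* was called lower in females (-1.04 ± 0.17, adjusted p = 0.005), and *Lpcat3* passed in both sexes below 2-fold (0.50 ± 0.11 and 0.66 ± 0.11). *Mmab*, the neighbour that shares the intergenic stretch shown above with *Mvk*, was at 19.0, 27.5, 29.1 and 51.4 CPM in chow-fed and 99.5, 92.1, 95.9 and 85.6 CPM in SC-435-fed KO females and was called in both sexes (1.56 ± 0.24, adjusted p = 0.0044 and 1.02 ± 0.13, adjusted p = 0.0023).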

How the data were processed

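Livers of 32 mice were flash frozen, RNA was extracted with TRIzol and poly-A libraries were sequenced on an Illumina platform. Per the labels, the authors' processing notes name HISAT2 2.0.5, featureCounts 1.5.0-p3 and build mm10. The deposited counts are whole reads per gene without normalization. Whether counting used strand is not given in the sources used here, and the labels allow both library types. FPKM values and 7 comparisons of the authors (fold changes and p-values) in the same table were not used. The labels start the SC-435 diet 3 weeks after weaning, whereas the methods of the study read as a start at weaning.

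The members and lists were chosen with earlier results of these data known. Samples were grouped by sex, genotype and diet from their titles. Comparisons used edgeR 4.0.16 in R 4.3.3 (filterByExpr, TMM, glmQLFit, glmQLFTest), with Benjamini-Hochberg adjustment over all genes tested. Called genes had an adjusted p below 0.05 and an absolute log2 fold change above 1, and interactions needed only the adjusted p. The SE is the log2 fold change divided by the root of F. Log2 levels used a prior count of 2. The edgeR and DESeq2 1.42.0 fits were tested on simulated data. Alternatives were DESeq2, 2 other scalings (median-of-ratios and plain library size), no low-count filter, a mean of at least 50 counts, a block for replicate number, 1 fit over the 4 groups of a sex, no fold limit, and leaving out each library. The list counts, the spread between mice and the likeness of responses without female KO chow replicate 4, and the spread without male WT chow replicate 1, were added after seeing the data. Replicate numbers are shared between groups in the titles, but nothing states that they pair mice. Replicates of a group differed beyond counting noise, and p-values measure the spread between mice. All members, the list genes with the smallest adjusted p in KO mice (at most 3 a list, with *Cyp7a1* and *Mmab*) and the 5 genes most like the members were to be named. 2 genes that these rules would name are not reported here.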

Additional observations from a re-analysis of the deposited data

Results flagged for a closer look

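A mouse was set apart when its gap to the nearest of the other 3 mice of its group exceeded Dixon's critical share of the group's range for 4 values. Chance alone sets apart about 1 in 20 groups. Of 224 groups of 4 values examined, 33 held such a mouse. Male WT chow replicate 1 accounted for 12 of them. It was high for *Mvk* (110 CPM), *Mvd* (75.1 CPM), *Fdft1* (352 CPM), *Tm7sf2* (649 CPM), *Ebp* (689.99 CPM), *Dhcr7* (336 CPM), *Tmem97* (174 CPM), *Srebf2* (200.5 CPM), *Scap* (414 CPM) and *Mbtps1* (121 CPM), and low for *Ggps1* (1.48 CPM) and *Stard4* (42.1 CPM). Female KO chow replicate 4 accounted for 9, high in each: *Acat2* (87.5 CPM), *Pmvk* (64.0 CPM), *Fdps* (10.9 CPM), *Lss* (91.3 CPM), *Hsd17b7* (76.6 CPM), *Sc5d* (894 CPM), *Stard4* (175 CPM), *Rdh11* (84.5 CPM) and *Srebf2* (119.9 CPM).

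The other 12 were scattered. In SC-435-fed KO females replicate 4 was low for *Acat2* (199 CPM) and *Pmvk* (129 CPM), replicate 1 high for *Fdps* (54.5 CPM) and *Srebf2* (211 CPM), replicate 3 low for *Msmo1* (736 CPM) and replicate 2 high for *Tmem97* (159 CPM), and in chow-fed KO females replicate 3 was high for *Mbtps2* (10.8 CPM). In chow-fed KO males replicate 1 was high for *Hmgcs1* (214 CPM) and *Dhcr7* (98.9 CPM) and replicate 4 for *Tmem97* (74.3 CPM). In SC-435-fed WT males replicate 3 was low for *Lss* (95.5 CPM) and replicate 4 for *Tm7sf2* (194 CPM).

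In females the interaction of genotype and diet passed for *Acat2* (1.20 on the log2 scale), *Mvd* (2.16), *Fdft1* (1.32), *Lss* (2.10) and *Scap* (0.66), each toward a larger response in KO mice. The number of members that passed rested on single mice, as leaving out 1 mouse gave from 0 to 24.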

How the results depend on the processing

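The counts of members called for SC-435 against chow in the KO (23 in females, 19 in males), for treated KO against chow-fed WT females (19) and for KO against WT males on SC-435 (0) stayed within 1.5 times under every alternative run, and no member called under any setting changed direction. The other counts moved. With DESeq2 they were 17 for the interaction in females (5 in the main analysis) and 3 in males (0), 3 for KO against WT on chow in males (0), 7 for SC-435 in WT males (1), 8 for treated KO against chow-fed WT males (2) and 1 for the sex difference of SC-435 in KO mice (0). With the 4 groups of a sex in 1 fit they were 7 and 3 for KO against WT on chow in females and males, 3 and 7 for SC-435 in WT females and males and 9 for treated KO against chow-fed WT males. Without a filter on low counts they were 3 for KO against WT on chow in females, 8 for SC-435 in WT females and 13 for the interaction in females. Median-of-ratios size factors gave 3 for that interaction, and library size only gave 0 for SC-435 in WT males. Without the fold limit the counts were 2 for KO against WT on chow in females, 11 for SC-435 in WT females and 18 for KO against WT females on SC-435. The share of all genes is not given for these alternatives or for most fits that leave out 1 library. A rise in such a count may therefore extend to other genes. The cause of these moves was not tested.

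With the replicate number as a block the counts were 0 for KO against WT on chow in females, 2 for the interaction in females, 0 for SC-435 in WT males and 0 for treated KO against chow-fed WT males. The block changed no other count by more than 1.5 times. Over all genes that passed the filter, same-numbered mice did not deviate together (correlations from -0.148 to 0.152). That check cannot exclude a pairing that touches only part of the genes, so whether the number pairs mice is not known.

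Leaving out 1 library gave 0 to 15 members for KO against WT on chow in females and 0 to 1 in males, 23 to 24 and 19 to 20 for SC-435 in KO females and males, 2 to 14 and 0 to 12 for SC-435 in WT females and males, 16 to 19 and 1 to 17 for treated KO against chow-fed WT females and males, 1 to 2 for KO against WT females on SC-435, 0 to 24 and 0 to 2 for the interaction in females and males, and 0 to 17 for the sex difference of SC-435 in KO mice.

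Scaling by library size only put the all-gene median for KO against WT on chow at 0.17 in females and 0.29 in males. Relative to it the members lay at -0.71 and -0.70, against -0.70 and -0.80 with TMM. The mean relative level of chow-fed KO males moved from -0.52 to -0.19 with library size only and that of SC-435-fed WT males from 0.77 to 0.88. TCACNCCAC in 100 bases matched 0 members, and CACNCCAC matched 3 in 250 bases and 2 in 100 bases. With 4 mice a group, differences small beside the spread between chow-fed mice could not be resolved.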

Other observations

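The log2 levels of 11875 other protein-coding genes that averaged 1 CPM or more were compared with the mean relative level of the 27 members over the 32 mice. That mean was relative to chow-fed WT mice of each sex, while the levels of the other genes were not. A sex difference in a gene could therefore lower its place. The most alike were *Mmab* (Pearson r = 0.95), *Acss2* (0.94), *Erg28* (0.93), *Tmem135* (0.93) and *Blmh* (0.92). *Erg28* encodes a membrane protein that holds sterol demethylation enzymes together, and without male WT chow replicate 1 its r was 0.97, the highest of all genes compared. *Mmab* was then second, while *Acss2*, *Tmem135* and *Blmh* were in places 6, 8 and 9. *Erg28* was at 33.0, 38.7, 38.9 and 69.2 CPM in chow-fed and 144, 129.9, 128 and 137 CPM in SC-435-fed KO females, with no overlap (edgeR's quasi-likelihood test, log2 fold change 1.59 ± 0.20, adjusted p = 0.0021). In KO males the change of *Erg28* was 1.03 ± 0.14, adjusted p = 0.003. *Blmh*, a cytosolic cysteine protease, passed in both sexes below 2-fold (0.78 ± 0.08, adjusted p = 0.0011 and 0.63 ± 0.07, adjusted p = 0.0016), and so did *Tmem135* (0.62 ± 0.13, adjusted p = 0.013 and 0.57 ± 0.08, adjusted p = 0.0026). The correlations describe mice that share groups and carry no p.

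*Acss2* was at 57.2, 63.4, 114 and 441 CPM in chow-fed KO females, so that replicate 4 again lay above the other 3.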
